A study of Homo sapiens with 3 samples.

Results

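The genes described here encode 10 subunits of eukaryotic translation initiation factor 3 (eIF3): EIF3A, EIF3B, EIF3C, EIF3D, EIF3E, EIF3F, EIF3G, EIF3H, EIF3I and EIF3L. They were chosen by name. Each ribosome peak was assigned through the RefSeq transcript that annotates it where this could be matched to a gene, and otherwise through the gene name beside it. By this rule, 200 of 46819 ribosome peaks lay on 8 of the 10 genes, whereas EIF3E and EIF3L had 0 peaks.

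Peaks came from ribosome profiling, in which the mRNA fragments that ribosomes shield from nuclease are sequenced. The cells were HEK293T, a human embryonic kidney line, transiently transfected for 24 h with empty pCDNA3.1 vector or with a FLAG-tagged construct, either wild-type DDX3X or its G325E mutant, a substitution in this DEAD-box RNA helicase found in medulloblastoma. All cells kept their own DDX3X gene, and in the labels all received harringtonine (2 µg/ml for 90 s) and then cycloheximide (100 µg/ml), although the study's methods mention cycloheximide only. Each construct had 1 library, so a difference between constructs and a difference between libraries cannot be told apart, and no p-value is given.

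eIF3 is the largest of the initiation factors. It binds the small ribosomal subunit, helps to bring in the initiator tRNA complex and the mRNA, and stays near the ribosome during scanning towards the start codon. The subunits EIF3A, EIF3C, EIF3E and EIF3L carry a PCI domain and EIF3F and EIF3H an MPN domain, and together they build much of the main body of the complex. EIF3B is a scaffold that holds EIF3I, a WD40 protein, and EIF3G, which has an RNA recognition motif, in a peripheral module. EIF3D sits at another edge and can contact the cap of selected mRNAs.

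On eIF3 subunit genes lay 46 of 11219 vector peaks, 112 of 19920 wild-type peaks and 42 of 15680 G325E peaks. The lists carried no height or read count, so the read depth behind a peak is unknown. Peak numbers followed genome order, and 1952 vector numbers, 3099 wild-type numbers and 0 G325E numbers had no row. Between the nearest listed peaks on either side of the genes described here, the vector list skipped 6 numbers, the wild-type list 9 and the G325E list 0, and what stood under them was not analysed here. The gene of the transfected helicase, DDX3X, carried 0 vector peaks, 32 wild-type peaks and 9 G325E peaks. The labels call the cells neuronal, but among 10 neuronal marker genes only TUBB3 had a peak in any library (8 in vector, 6 with wild-type DDX3X and 5 with G325E).

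To show the bases behind the results, the middle 30 coding bases of the longest stretch with a given pattern were read from GRCh37 in the direction of transcription, with G and C in capitals. The first set lay in peaks of all 3 libraries. For EIF3C the bases had to lie in peaks of every library both at the gene and at its near-identical copy EIF3CL, which has 1 more codon.
EIF3A codons 829 to 839, exon 17, chr10:120809456-120809485, minus strand: GaGaGCGCGCCGaaCGaGCaaaaCGCGaGG
EIF3C codons 656 to 665, exon 16, chr16:28743297-28743326, plus strand: CaGGaGCGCaaCCaGGaGCaGGaGaaGGtG
EIF3CL codons 657 to 666, exon 16, chr16:28394626-28394655, minus strand: CaGGaGCGCaaCCaGGaGCaGGaGaaGGtG
EIF3B codons 130 to 139, exon 1, chr7:2394944-2394973, plus strand: GGaaaCGaGGGCaGaGCGGCCGaGGCCGaa
EIF3G codons 212 to 222, exon 8, chr19:10226682-10226711, minus strand: aGtatGtGCCGCCGaGCCtGCGCGaCGGGG

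The next set lay in peaks of G325E only. Both sequences are from the beginning of a first exon, and their GC content was 83.3% in EIF3B and 80.0% in EIF3F.
EIF3B codons 21 to 31, exon 1, chr7:2394618-2394647, plus strand: aGCaGCaGCCGGCCGCCGaGCCGCCGCCaG
EIF3F codons 16 to 26, exon 1, chr11:8008947-8008976, plus strand: CCCaGtCCCGGCGGCGGCCCCaGCCtCaGt

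The last set was missing from G325E. The EIF3A sequence lay in peaks of vector and wild-type, and the EIF3D, EIF3I and EIF3B sequences in peaks of wild-type only. Their GC content ranged widely, from 33.3% in EIF3A through 46.7% in EIF3D and 56.7% in EIF3I to 76.7% in EIF3B.
EIF3A codons 803 to 813, exon 16, chr10:120810069-120810098, minus strand: GGataaCataCtataGaGaaaaaGaaGaGG
EIF3D codons 505 to 514, exon 14, chr22:36907641-36907670, minus strand: aaataCCtCatCCtCaaGGaCCCCaaCaaG
EIF3I codons 186 to 196, exon 7, chr1:32694129-32694158, plus strand: GCaCtCCCGGCaGatCaaCGaCatCCaGtt
EIF3B codons 697 to 707, exon 15, chr7:2416647-2416676, plus strand: CCGCttCtGCCaGCtGCtGtGGCGGCCCCG

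The genes lie apart in the genome. Their annotated gene spans on GRCh37, with the exon number of the canonical transcript, are EIF3A (chr10:120793182-120840329, minus strand, 22 exons), EIF3C (chr16:28699879-28747048, plus strand, 21 exons), EIF3L (chr22:38244875-38285414, plus strand, 13 exons), EIF3B (chr7:2393721-2420380, plus strand, 19 exons), EIF3G (chr19:10225690-10230594, minus strand, 11 exons), EIF3I (chr1:32686678-32710998, plus strand, 11 exons), EIF3F (chr11:7991798-8023409, plus strand, 8 exons) and EIF3D (chr22:36906902-36925231, minus strand, 15 exons), and EIF3E (13 exons) and EIF3H (8 exons) are on the minus strand of chromosome 8. A gene span can be longer than its canonical transcript.

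To compare genes of different length, peaks were laid on the canonical coding sequence of each gene and the coding bases inside a peak were counted, whatever gene name the peak carried. For EIF3C alone, peaks at its copy EIF3CL were merged in, here and in later counts of coding bases over the subunits. This raised its bases in peaks from 405 to 407 in vector, from 886 to 1178 in wild-type and from 266 to 437 in G325E. Over the 10 coding sequences (18060 nt), vector peaks held 11.8% of bases, wild-type peaks 26.4% and G325E peaks 10.7%. Wild-type peaks therefore held 2.23 times as many subunit bases as vector peaks, and G325E peaks held 0.406 times as many as wild-type peaks. Over the 2788 other genes with a coding peak, the same ratios were 1.74 and 0.645. EIF3A held 424, 1413 and 116 of the 2135, 4761 and 1935 subunit bases in vector, wild-type and G325E peaks. Merged EIF3C held 407, 1178 and 437. The subunit ratios thus rest largely on these genes. Ratios without them were not computed, so a difference from other genes is not shown for the remaining subunits. EIF3G had the highest share of its coding sequence in peaks in every library.

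**Figure D1:**
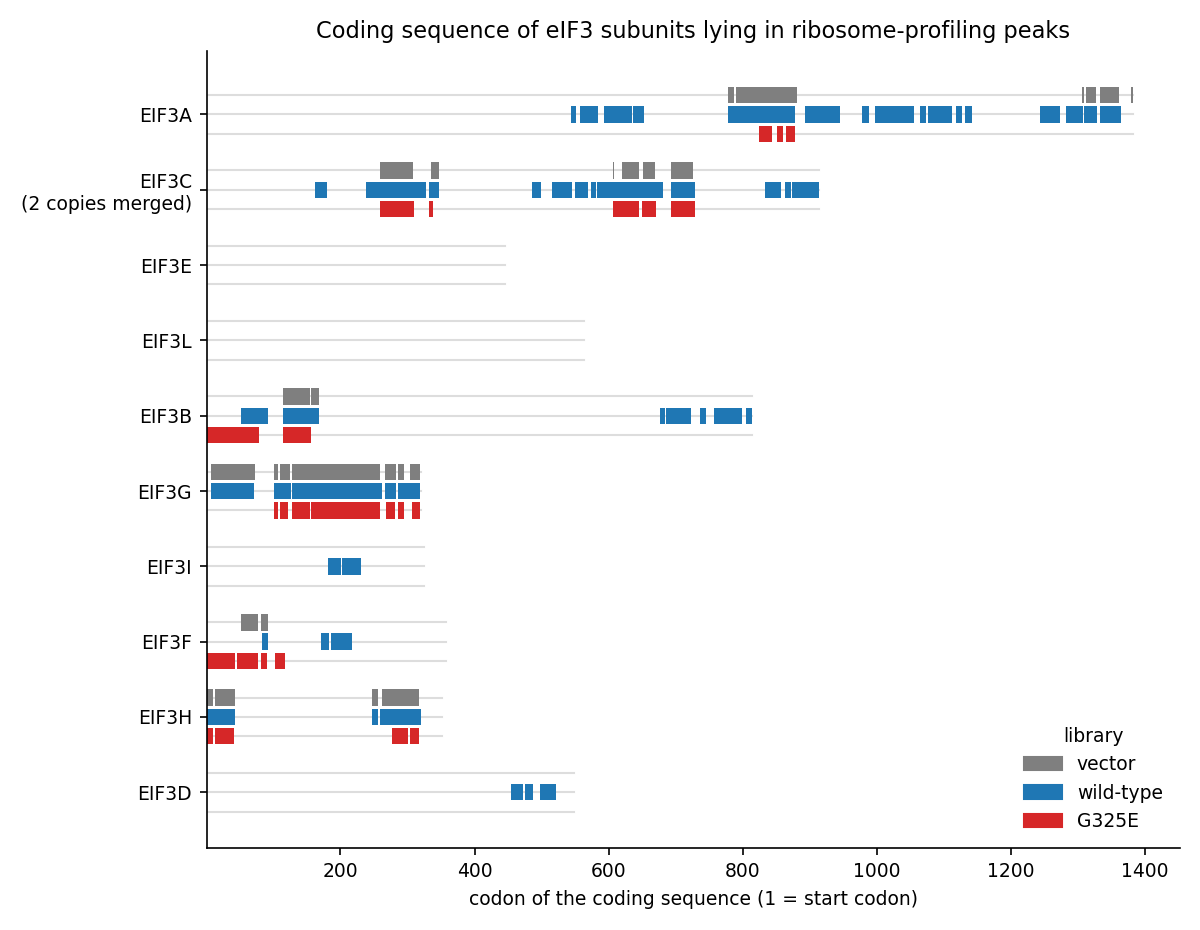
Coding bases of each subunit that lay in a peak, drawn by codon (x axis) with 1 line per library (vector grey, wild-type blue, G325E red) and a pale line for the length of the coding sequence. EIF3E and EIF3L are empty, EIF3D and EIF3I are marked in wild-type only, and the first 25% of EIF3G is empty in G325E.

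**Figure D2:**
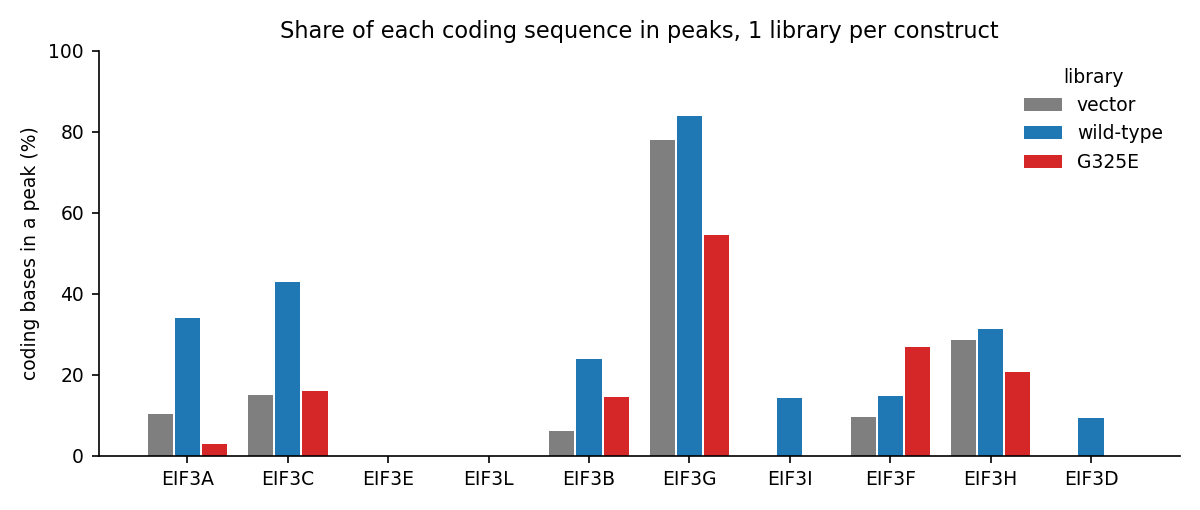
Percentage of coding bases in a peak (y axis) for each subunit and library, with 1 library per construct and so no error bars. EIF3G stands at 77.9%, 84.0% and 54.5% in vector, wild-type and G325E, and EIF3F is the only subunit with its highest bar in G325E (26.9%).

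Among the PCI subunits, EIF3A, the largest subunit and a platform on which others assemble, had 8 vector peaks, 26 wild-type peaks and 3 G325E peaks. These held 10.2%, 34.1% and 2.80% of its coding sequence of 1381 codons. Wild-type stood highest and G325E lowest. No library had an EIF3A peak before codon 544, so the first 25% of its coding sequence was empty in all 3. The 3 peaks of G325E were all in exon 17, between codons 825 and 878, and every one of their 116 coding bases also lay in vector and wild-type peaks. Wild-type peaks went on through exon 19, a long exon in which neither of the other libraries had a peak, to codon 1364. Vector also had peaks in exon 22, between codon 1307 and the stop codon at 1382. The only 3′-UTR peak of the subunits was on EIF3A in vector.

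EIF3C, another PCI subunit and a partner of EIF3A in the core, had 14 vector, 41 wild-type and 15 G325E peaks. These counts are uncertain, because the coding sequences of EIF3C and EIF3CL were identical apart from 1 additional codon in EIF3CL, and only 0.214% of the 21-base words of EIF3C occurred once in the genome. Peaks were listed at both places, with 7, 17 and 7 at EIF3C and 7, 24 and 8 at EIF3CL. The numbers at the copies are therefore not separate measurements. With the copies merged, vector peaks held 14.9% of coding bases, wild-type peaks 43.0% and G325E peaks 16.0%. In this merged set, vector and G325E were close in both amount and place. They shared 378 bases, which was 92.9% of the vector bases and 86.5% of the G325E bases, and all of these also lay in wild-type peaks. At the EIF3C locus alone, vector held 14.8% from codon 259 on and G325E 9.71% from codon 607 on. At EIF3CL they held 13.8% and 15.6%, both from codon 259 on. Wild-type alone had peaks between codons 162 and 255, between codons 468 and 581 and between codons 833 and 913. Those from codon 162 to 180 and from 833 to 913 were listed at EIF3CL only.

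The other PCI subunits, EIF3E and EIF3L, had 0 peaks in all 3 libraries. Of their 21-base words (21 nt was the shortest read the study kept), 60.9% in EIF3E and 58.9% in EIF3L occurred once in the genome, and longer reads may be unique where such a word is not. The part of this in the empty lists was not tested. The wild-type list skipped 1 number between the neighbours of EIF3L, and 0 numbers were skipped between those of EIF3E. Both genes had fewer unique words than EIF3A (94.7%), EIF3B (99.3%), EIF3D (97.9%), EIF3G (98.3%), EIF3H (99.0%) and EIF3I (88.1%), but more than EIF3F (23.2%), which had peaks in every library.

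In the peripheral module, EIF3B carried 2 vector peaks, 16 wild-type peaks and 7 G325E peaks, of which 1, 6 and 3 were in introns. Between the neighbours of this gene, the vector list skipped 3 numbers, the wild-type list 2 and the G325E list 0. Among all EIF3B peaks, 0, 1 and 2 were antisense to the gene. Its first exon was marked in all 3 libraries, and codons 115 to 154 were shared. G325E peaks also held codons 1 to 78, including the start codon, whereas vector had no peak there and wild-type began at codon 52. In contrast, wild-type alone had peaks at the end of the gene, between codon 677 and the stop codon at 814. Thus 57.9% of the first 25% of the coding sequence lay in G325E peaks and 0% of the rest, against 45.1% and 16.9% in wild-type and 24.8% and 0% in vector. The first 25% of EIF3B had a GC content of 72.8% and the rest 49.6%.

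EIF3G, the RNA-binding subunit of the module, had 14, 12 and 9 peaks by the assignment rule in the order vector, wild-type, G325E. A further 7, 6 and 7 peaks on its coding sequence and strand were annotated to the neighbouring PPAN-P2RY11 readthrough gene, which ends there. With these included, vector peaks held 77.9% of coding bases, wild-type peaks 84.0% and G325E peaks 54.5%. The first 25% differed most. Vector and wild-type peaks held codons 8 to 72 and 8 to 71, or 79.2% and 79.6% of the first 25%, and G325E peaks held 0%. From codon 101 onwards the libraries looked alike, with 521 bases shared by all 3. The GC content of the first 25% of EIF3G (56.7%) was lower than that of the rest (61.4%), and 0 numbers were skipped at this gene in any library.

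EIF3I, the WD40 subunit, had 4 peaks in wild-type and 0 in vector and in G325E. They lay side by side in exons 7 and 8, from codon 182 to codon 230, and held 14.3% of the coding sequence. In vector and in wild-type 1 number was skipped between the neighbours of this gene.

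Of the MPN subunits, EIF3H had 6 vector, 5 wild-type and 4 G325E peaks. A peak on the start codon and another in exon 1 were present in all 3. Exon 7 was also marked in all 3, but the peaks of exon 6 were listed in vector and wild-type only. The 86 coding bases in peaks of vector and wild-type only had a GC content of 40.7%, compared with 63.4% for the 216 bases shared by all libraries.

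On EIF3F were 2 vector peaks, 5 wild-type peaks and 4 G325E peaks. The vector list skipped 1 number between the neighbours of this gene, the wild-type list 2 and the G325E list 0. G325E peaks held 89.9% of the first 25% of its coding sequence, from the start codon on, and vector peaks 36.3%. For wild-type this share was 7.12%, but exon 4 was marked between codons 172 and 217, where the other libraries had no peak. Only 22 bases were shared by all 3. Only 23.2% of the 21-base words of EIF3F were unique in the genome, and the part of this in its peaks was not tested.

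EIF3D, the subunit that can bind the cap, had 3 peaks in wild-type and 0 in vector and in G325E. All were in exon 14, between codons 455 and 521, and they held 9.31% of the coding sequence. Of the 8 subunit genes that carried 3 or more wild-type peaks in mRNA classes (promoter-TSS, 5′-UTR, coding, 3′-UTR and TTS, the outer 2 being windows around transcription start and end sites), 2 had 0 peaks in vector and in G325E, EIF3D and EIF3I. Among the 2196 genes of that kind, 19.6% had 0 in both other libraries.

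Next, peak numbers were scaled to the total of each library in the mRNA classes and compared as log2 ratios with a pseudocount of 0.5. Per 10000 such peaks, the vector list had 44.3 on the subunits (95% interval by Wilson's method, 32.8 to 59.9), the wild-type list 61.3 (50.6 to 74.3) and the G325E list 29.0 (21.1 to 39.8). These intervals cover counting error only, and the peaks of 1 gene are not independent. Without the EIF3CL locus the values were 37.0, 47.0 and 22.9. Wild-type was highest and G325E lowest either way. Of the 103 wild-type peaks counted here, EIF3A gave 26 and EIF3C 41. They gave 8 and 13 of 42 in vector and 3 and 15 of 38 in G325E. The high wild-type value and its distance from G325E thus rest largely on these genes. Values without both genes were not computed, so the order of the libraries and the intervals below are shown only with these genes included. The intervals of wild-type and G325E did not overlap, while that of vector overlapped both, and without the EIF3CL locus this was the same (26.6 to 51.3 for vector, 37.7 to 58.6 for wild-type and 16.1 to 32.7 for G325E).

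Ratios were given to the 6 subunits with at least 5 peaks over the pair of libraries. Between G325E and wild-type, 2 of 6 were at least 2-fold lower, against 26.3% of 2269 genes, and 0 of 6 were at least 2-fold higher, against 24.5%. The lower subunits were EIF3A (3 against 26 peaks, log2 ratio −2.56) and EIF3C (15 against 41, −1.06). The EIF3C call counts 1 sequence at 2 loci and was lost without the EIF3CL locus (7 against 17 peaks, −0.86) and with the study's mapped reads as the scale (−0.66). EIF3B was at −0.86, EIF3F at 0.36, EIF3G at 0.05 and EIF3H at 0.07. The median was −0.40 for the 6 subunits and 0.15 for all genes.

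Between G325E and vector, 2 of 6 subunits were at least 2-fold lower (background 20.0% of 1812 genes), EIF3A at −1.75 and EIF3G at −1.02, and 1 was at least 2-fold higher (background 30.4%), EIF3B at 1.12 on 4 peaks against 1. The EIF3G value leaves out its coding peaks labelled for the neighbouring gene, and with them the call was lost (15 against 19 peaks, −0.80). At EIF3B the vector list skipped 3 numbers, so ratios on its 1 vector peak are uncertain. The median was −0.63, and −0.11 over all genes. Between wild-type and vector, EIF3B was at least 2-fold higher (1.98, background 24.7% of 1957 genes), and EIF3G (−1.08) and EIF3H (−1.07) were at least 2-fold lower (background 18.7%). The median was 0.41, and −0.34 over all genes. EIF3G and EIF3H differed from vector by 1 or 2 peaks in wild-type, and their values come close to 0 without scaling (−0.25 and −0.24). Shares of this size among 6 genes are near the backgrounds, so the calls do not set the subunits apart. The 3 pairs share their libraries, so the comparisons are not independent.

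**Figure D3:**
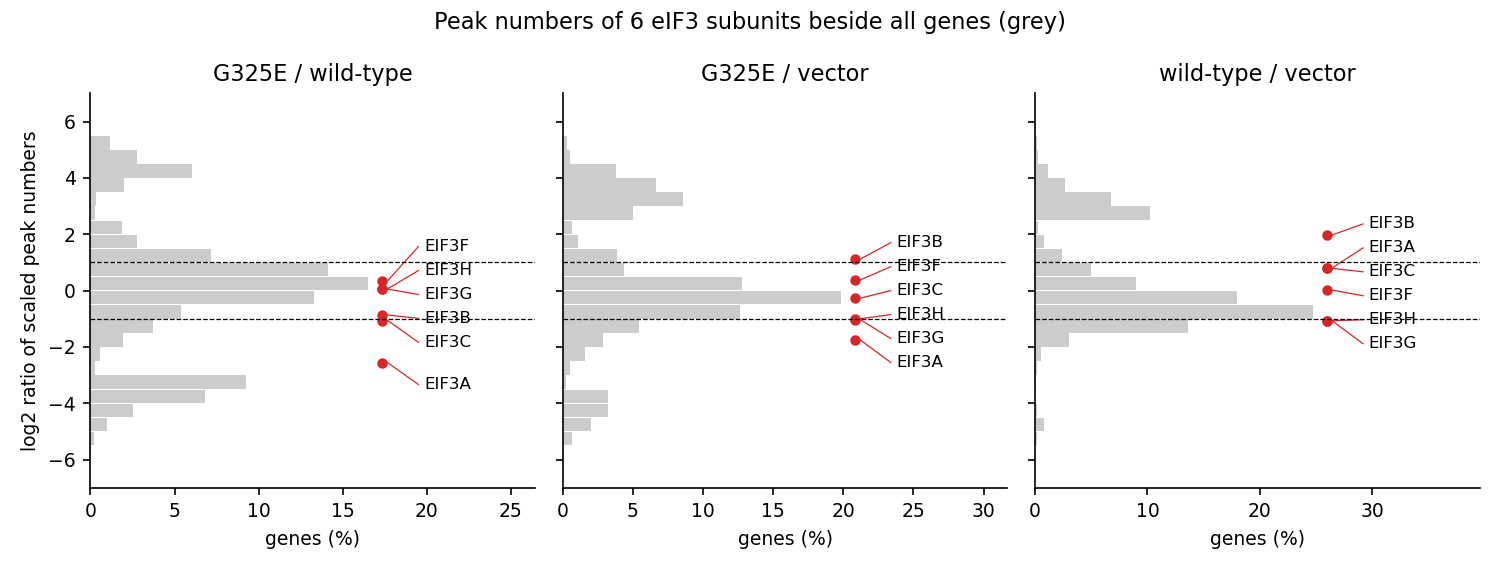
Log2 ratio of scaled peak numbers (y axis) for each pair of libraries, with the percentage of all genes in each bin as grey bars and 6 subunits as red points placed beside them. Dashed lines mark 2-fold, and the subunits lie within the range of the grey bars, with EIF3A lowest in both G325E panels.

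Next, the regions of the peaks were compared. Over the 3 classes of the mature mRNA (5′-UTR, coding, 3′-UTR), 38 of 39 vector peaks on the subunits were coding, as were 99 of 99 wild-type and 34 of 34 G325E peaks. None was in the 5′-UTR class, which allows a share, as 3 peaks of the total, of up to 7.69% for vector, 3.03% for wild-type and 8.82% for G325E (upper Wilson bounds 8.97%, 3.74% and 10.2%). In all other genes 5′-UTR peaks made up 9.12% (8.43 to 9.86), 8.92% (8.42 to 9.46) and 19.3% (18.4 to 20.2). The 6 subunits with at least 2 such peaks in G325E all lacked a 5′-UTR peak, as did 59.4% of 1296 genes. The canonical 5′-UTRs of the 10 subunits had a median length of 37.5 nt (15 to 141 nt), against 132 nt over 19528 genes. The annotation also put peaks near a start site into the promoter-TSS class, which held 3, 4 and 4 subunit peaks. These were 6.52%, 3.57% and 9.52% of all subunit peaks, against 23.1%, 21.2% and 34.8% in the other genes. On canonical transcripts, 0 vector peaks, 1 wild-type peak and 1 G325E peak on the subunits had their midpoint in a 5′-UTR, and both were on EIF3B. They carried the promoter-TSS label, as did peaks on the start codons of EIF3F and EIF3H. The empty 5′-UTR class thus does not show that 5′-UTR peaks were absent. With 5′-UTRs this short, its contrast with the other genes says little. Each library had 2 antisense peaks at the subunits, or 4.35%, 1.79% and 4.76%, against 17.7%, 17.6% and 24.8% in the other genes.

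The position of coding peaks was measured from 0 at the start codon to 1 at the end. The mean over subunit peaks was 0.530 ± 0.287 for the vector library (SD, n = 40 peaks), 0.604 ± 0.255 for wild-type (n = 100 peaks) and 0.525 ± 0.265 for G325E (n = 36 peaks). In the other genes it was 0.492, 0.502 and 0.395. The first 25% of the coding sequence held 22.5% of the vector peaks (12.3 to 37.5), 12.0% of the wild-type peaks (7.00 to 19.8) and 19.4% of the G325E peaks (9.75 to 35.0) on the subunits. In the other genes this share was 27.9% in vector, 26.4% in wild-type and 42.8% (41.6 to 44.1) in G325E. Without EIF3C it was 34.6%, 15.3% and 33.3% (17.2 to 54.6) for the subunits, so the gap to the other genes in G325E rests in part on that duplicated gene. Without EIF3A it was 27.3%, 16.2% and 21.2%. Of the 100 wild-type peaks, EIF3A gave 26, with 0 in the first 25%, and EIF3C 41, with 3 there. Shares without both genes were not computed, so a low share of early peaks is not shown for the other subunits. The 7 early peaks of G325E were on EIF3B (2), EIF3F (3) and EIF3H (2).

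**Figure D4:**
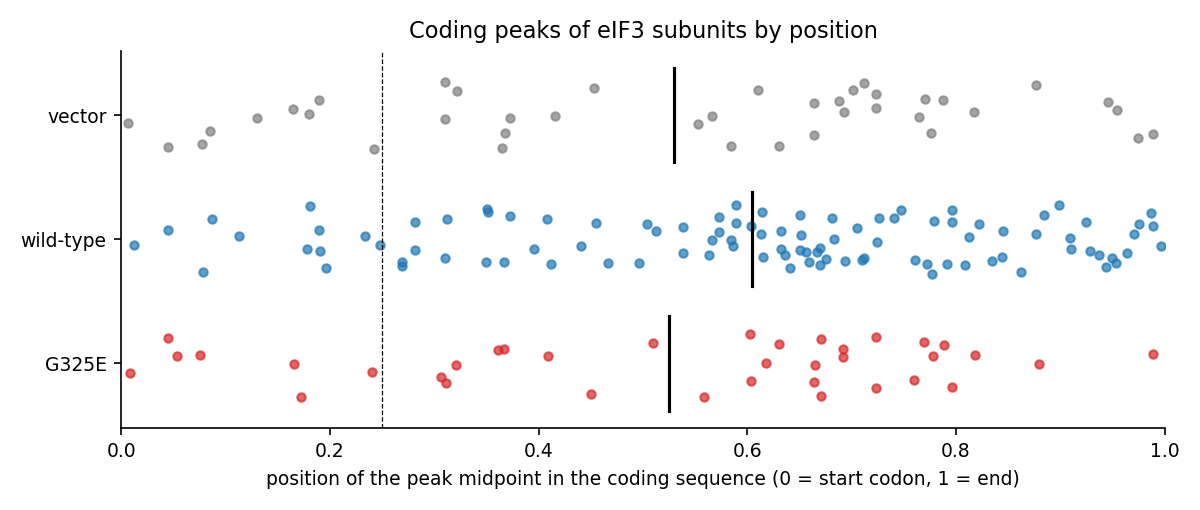
Midpoints of the subunit coding peaks along the coding sequence (x axis, 0 at the start codon) in each library, 1 point per peak with vertical jitter only. Black bars mark the means of 0.530, 0.604 and 0.525, and the dashed line marks the first 25%.

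The GC content of the 31 nt around the midpoint of subunit peaks was 58.4% ± 11.9 for vector (SD, n = 46 peaks), 58.1% ± 11.7 for wild-type (n = 112 peaks) and 65.1% ± 11.8 for G325E (n = 42 peaks). In the other genes it was 62.7%, 62.3% and 73.1%. The other genes had a smaller share of coding peaks. In the coding class alone, GC content was 57.4%, 56.7% and 62.2% for the subunits and 58.7%, 58.1% and 67.7% for the other genes. G325E was higher in both sets. To see which parts of the subunits this concerned, coding bases were grouped by the libraries whose peaks held them. GC content was 75.7% in the 342 bases held in G325E only, 64.2% in the 1370 bases held in all 3, 57.3% in the 2581 held in wild-type only, 51.3% in the 665 held in vector and wild-type only, and 47.1% in the 12857 held in none. The subunits with 0 peaks had a low coding GC content, 39.8% in EIF3E and 48.7% in EIF3L, but EIF3H (46.3%) and EIF3A (47.2%) had peaks.

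The same was seen when the 8 subunits with peaks were divided into 31-nt windows of coding sequence. Among windows under 45% GC, vector peaks touched 9 of 107, wild-type peaks 19 and G325E peaks 1. Among windows of at least 65% GC, the numbers were 26 of 55 (47.3%), 38 (69.1%) and 35 (63.6%). Between 45% and 55% GC, they were 23 of 216, 67 and 14, and between 55% and 65% GC 27 of 103 (26.2%), 64 (62.1%) and 27 (26.2%). G325E was thus below wild-type in the 3 lower GC classes and came close to it only in windows of at least 65% GC. In the other genes with a peak, the windows of at least 65% GC were touched in 14.0%, 23.3% and 28.3%, and those under 45% in 4.68%, 9.20% and 1.61%. Windows of 1 gene are not independent, and the part of GC content in the differences between libraries was not tested.

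**Figure D5:**
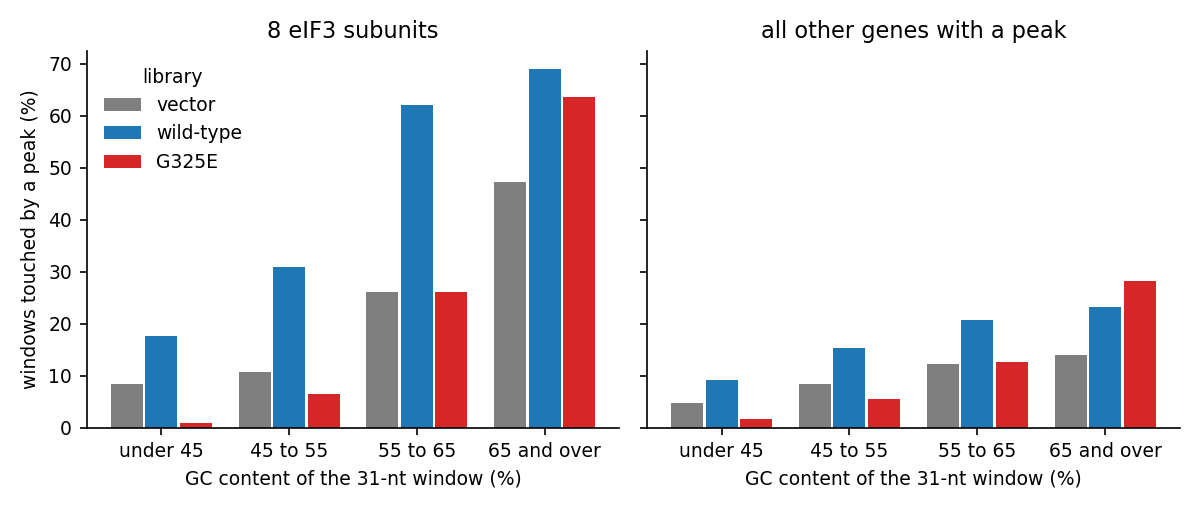
Percentage of 31-nt coding windows touched by a peak (y axis) by GC content of the window (x axis) and library, for 8 eIF3 subunits on the left and all other genes with a peak on the right. For the subunits, the red G325E bar rises from 1 of 107 windows at the lowest GC to 35 of 55 at the highest.

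Finally, the places of the peaks were compared. Of the coding bases in subunit peaks of G325E, 78.3% also lay in wild-type peaks, against 60.8% for the other genes, and 74.8% in vector peaks, against 48.7%. Of the vector bases, 95.3% were shared with wild-type and 67.8% with G325E. Of the wild-type bases, 42.7% were shared with vector and 31.8% with G325E. In the other genes these shares were 87.9% and 54.5% of vector bases and 50.6% and 39.2% of wild-type bases, so the subunits were above the other genes for vector and G325E bases and below them for wild-type bases. The wild-type list was the longest, and on subunit coding sequence its peaks nearly contained those of vector. EIF3F and EIF3B gave most of the G325E bases outside wild-type. Counted as peaks with at least 1 shared base, 36 of 42 subunit peaks of G325E met a wild-type peak and 32 of 42 a vector peak, and 26 of 112 wild-type peaks met a G325E peak. These were 85.7%, 76.2% and 23.2%, against 45.8%, 34.4% and 33.8% of the peaks in the other genes. The peaks compared differ in class: 81.0% of the subunit peaks of G325E were coding, against 35.4% in the other genes.

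Other initiation factors were counted for comparison. Of the eIF3 subunits outside the list, EIF3J, which is loosely bound, had 3, 7 and 1 mRNA-class peaks in the same order of libraries. EIF3K, a small PCI-type subunit, had 5, 5 and 3. EIF3M, another PCI subunit, had 0 in each. Among 29 further genes, 15, 19 and 11 had a peak. They were initiation factors and genes grouped with them here, among these EIF4EBP1, EIF4EBP2, EIF4A3 and PABPC1. Of the 14 genes of this list with at least 5 peaks over G325E and wild-type, 4 were at least 2-fold lower in G325E and 0 higher. Their median log2 ratio was −0.34. Over all 2269 genes tested, 26.3% were lower and 24.5% higher, with a median of 0.15, so the share of lower genes was near the background. EIF4G1, the scaffold of the cap-binding complex, had 18, 19 and 0 peaks, and EIF5A, which helps ribosomes to elongate, had 18, 21 and 13. In this list the 5′-UTR class took 5 of 69 vector peaks, 9 of 85 wild-type peaks and 11 of 27 G325E peaks, whereas the eIF3 subunits had none. That contrast says little, because subunit peaks in a 5′-UTR were labelled promoter-TSS. Its eIF4 group of 13 genes had 4 of 52, 6 of 59 and 7 of 20, and 35 small-subunit ribosomal protein genes had 5 of 113, 10 of 109 and 4 of 74.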

How the data were processed

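One peak list per library was used. According to the study and its processing notes, the authors trimmed reads with cutadapt, aligned those of at least 21 nt with BWA 0.5.5 to NCBI Build 37 (hg19) with RefSeq, junction and AceView sequences, removed duplicates, called peaks in each sample at a base coverage of 10 (Bambino), reviewed them by eye and annotated them with HOMER, whose version is not given in the sources used here. The deposited values are peak starts, ends and a signed distance to the start site (unit score, not used in any result). Starts lay 1 base after an exon start for 5601 peaks and on it for 73, while 5742 ends lay on an exon end, so each peak was taken to begin 1 base earlier. RefSeq identifiers matched for 98.2% of annotated peaks. Canonical transcripts came from GENCODE 44 on GRCh37. The fold calculation was tested on simulated peak numbers. Python 3.11.15, numpy 2.4.6, pandas 2.3.3, scipy 1.17.1, pysam and matplotlib 3.10.9 were used. Samples were grouped by title. The genes, the lists (initiation factors, eIF4 group, small-subunit ribosomal proteins, neuronal markers) and the alternatives were chosen with earlier results of these data known. Named genes were those of these lists and DDX3X.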

Additional observations from a re-analysis of the deposited data

How the results depend on the processing

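Numbers of subunits past 2-fold are small and moved with the scaling. Subunits lower in G325E than in wild-type numbered 2, but 1 with the study's mapped reads as the scale or without the EIF3CL locus and 3 with per-gene medians, no scaling or bases in place of peaks, and 1 was higher by bases. Lower than vector in G325E were 2, but 1 with per-gene medians, mapped reads, no scaling, 3 regions only, the gene's strand only or the neighbour-labelled EIF3G peaks included, and 3 by bases. Higher than vector in G325E was 1, but 2 with mapped reads and 0 with at least 10 peaks, 3 regions only or the gene's strand only. Higher in wild-type than in vector was 1, but 3 with per-gene medians, mapped reads or no scaling and 2 by bases, and lower were 2, but 0 with those 4 settings. With promoter-TSS peaks taken as 5′-UTR, that share rose from 0 to 7.14% (vector), 3.88% (wild-type library) and 10.5% (G325E library). The promoter-TSS class held 34.8% of all G325E peaks in other genes. These shares therefore cannot be set against the 5′-UTR shares of other genes given above, which leave that class out. In the first 10% of the coding sequence were 10.0% of vector and 4.0% of wild-type peaks, and weighting by length raised the G325E share in the first 25% to 37.5%. In the coding class alone, 94.7% of vector and 94.1% of G325E peaks met a wild-type peak. Mean GC, and the 5′-UTR share by canonical regions or the Gene Name column, moved by less than their errors. The EIF3CL and EIF3G settings and the count of coding peaks whatever their label were chosen after seeing the data. No paired analysis was possible because there was 1 library per construct. Read depth is unknown, and a peak missing from a list may be a stretch under the coverage limit.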
